A study of Mus musculus with 11 samples.

Results

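The Slc25 genes encode the mitochondrial carriers, proteins that move nucleotides, phosphate, organic acids, amino acids and cofactors across membranes, most of them the inner mitochondrial membrane. A few members sit elsewhere, such as Slc25a17 in peroxisomes and Slc25a46 in the outer mitochondrial membrane. Of the 47 genes of the dataset whose symbol is Slc25a followed by digits, 43 had at least 50 UMIs (unique molecular identifiers, each counting 1 captured RNA molecule) and are described here. UMIs were summed over the 34828 cells with at least 1000 UMIs, at least 200 genes and at most 30% mitochondrial (mt-) UMIs. Slc25a2, Slc25a41, Slc25a18 and Slc25a54 had 33, 12, 7 and 0 UMIs and fell below that minimum, while Slc25a31, the last one inside it, had 146. The 43 carriers together held 889066 of the 326132707 UMIs, or 0.273%.

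Single cell RNA sequencing was carried out on kidneys of male C57Bl/6 mice in 11 libraries. The control group held 5 libraries of naive kidneys (Ctrl, N1, N2, AN1 and AN2), unilateral ischemia-reperfusion (UIR) held 3 (UIR, UIR1 and UIR2) and unilateral ureteral obstruction (UUO) held 3 (UUO, UUO1 and UUO2). At 10 weeks of age, UIR mice had the left renal pedicle clamped for 30 minutes at 37 °C and UUO mice had the left ureter tied off for good, and the kidneys of both models were collected at day 28. Controls were not operated and matched the injured mice in age, strain and sex, and no group was sham-operated or carried a transgene. The operated mice had isoflurane during surgery and buprenorphine after it, which are not described for the controls, so their part and that of the injury cannot be told apart. The control libraries carry 3 source names (Control, Normal and Additional Normal), and no library is given a batch.

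Mitochondrial carriers share a fold of repeated transmembrane segments and mostly work as exchangers. ADP/ATP carriers (Slc25a4 and Slc25a5) and the phosphate carrier (Slc25a3) supply ATP synthase with its substrates and export its product, and the aspartate/glutamate carriers (Slc25a12 and Slc25a13) with the oxoglutarate carrier (Slc25a11) run the malate-aspartate shuttle, which brings reducing equivalents into mitochondria. Kidney tubules depend on mitochondrial ATP for salt and solute transport, and the proximal tubule (PT) also makes glucose and ammonia from substrates that cross this membrane.

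Promoters are shown for 5 carriers on which the comparisons turn. Slc25a3, Slc25a4, Slc25a5 and Slc25a12 were lower in the injured loop of Henle, and Slc25a24 was higher. The sequences cover 250 bases before to 50 bases after the transcript start, are written 5′ to 3′ on the strand of the gene, and were taken from RefSeq on build GRCm38.p6, with capitals marking the letters CCGGAAG, an ETS-type motif. The windows lie at chr10:91123918-91124217 (minus strand) for Slc25a3, chr8:46211013-46211312 (minus strand) for Slc25a4, chrX:36795347-36795646 (plus strand) for Slc25a5, chr2:71367706-71368005 (minus strand) for Slc25a12 and chr3:109122899-109123198 (plus strand) for Slc25a24.
Slc25a3: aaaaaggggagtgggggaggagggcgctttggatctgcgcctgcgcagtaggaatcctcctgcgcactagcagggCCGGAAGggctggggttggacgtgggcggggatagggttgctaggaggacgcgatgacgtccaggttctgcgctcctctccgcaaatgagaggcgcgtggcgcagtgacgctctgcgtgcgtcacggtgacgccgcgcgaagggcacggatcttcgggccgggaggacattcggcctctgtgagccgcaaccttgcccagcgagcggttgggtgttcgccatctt
Slc25a4: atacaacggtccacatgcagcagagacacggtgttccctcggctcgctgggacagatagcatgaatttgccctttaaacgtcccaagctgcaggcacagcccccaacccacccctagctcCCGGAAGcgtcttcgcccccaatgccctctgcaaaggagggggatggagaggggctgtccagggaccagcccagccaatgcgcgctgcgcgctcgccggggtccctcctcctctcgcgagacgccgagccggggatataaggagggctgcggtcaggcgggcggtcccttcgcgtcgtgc
Slc25a5: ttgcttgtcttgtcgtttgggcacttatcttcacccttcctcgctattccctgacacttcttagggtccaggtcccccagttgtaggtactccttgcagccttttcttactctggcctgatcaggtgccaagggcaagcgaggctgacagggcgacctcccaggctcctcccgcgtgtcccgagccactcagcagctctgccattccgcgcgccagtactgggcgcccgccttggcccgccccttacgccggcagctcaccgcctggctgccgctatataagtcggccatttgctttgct
Slc25a12: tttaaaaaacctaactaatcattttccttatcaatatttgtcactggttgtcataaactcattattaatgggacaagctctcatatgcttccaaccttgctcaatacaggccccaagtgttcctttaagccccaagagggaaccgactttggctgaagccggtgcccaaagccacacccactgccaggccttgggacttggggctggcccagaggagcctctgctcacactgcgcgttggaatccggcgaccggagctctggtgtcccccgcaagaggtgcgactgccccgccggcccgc
Slc25a24: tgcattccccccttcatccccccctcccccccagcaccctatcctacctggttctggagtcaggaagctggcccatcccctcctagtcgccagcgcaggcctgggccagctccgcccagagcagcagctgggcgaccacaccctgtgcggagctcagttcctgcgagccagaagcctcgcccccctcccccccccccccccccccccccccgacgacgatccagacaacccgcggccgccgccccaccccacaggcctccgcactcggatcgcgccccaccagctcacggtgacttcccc

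A promoter was matched for 34 of the 43 carriers by symbol. These carriers had 44 promoters in all. CCGGAAG was found on either strand in 6 of the 44, or 13.6% (Slc25a3, Slc25a4, Slc25a17, Slc25a20, Slc25a25 and Slc25a38), and in 8.86% of all 32851 promoters of this length. AAGGTCA, the half-site of estrogen-related receptors, was found in 1 of the 44, that of Slc25a34, and in 4.72% of all promoters. The palindromic form of the NRF1 motif was found in 0 of the 44 and in 0.971% of all promoters. These are matches of letters and not evidence of binding.

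Total UMIs per library were between 91920461 and 110914244 in control, 82522753 and 117043590 in UIR and 49503312 and 60918546 after UUO. Cells within the limits above numbered 1728 to 2176, 3311 to 6147 and 3191 to 4191 per library, with median UMIs per cell of 4546 to 5826, 4265 to 6011 and 5582 to 6213. The groups differed before any comparison of carriers, since 67.1% to 77.0% of the barcodes with that many UMIs and genes in control libraries exceeded the mitochondrial limit, against 27.4% to 41.5% in UIR and 4.37% to 8.96% in UUO. After 96 cells over the hemoglobin limit and 2606 predicted doublets were removed, 32126 cells remained, of which 3461 lay in clusters given no class and 326 in a cluster led by Itga8 and Pdgfrb that met no class's limits either and was kept apart. Of 31992 distinct barcodes, 134 occurred in more than 1 library and no pair of libraries shared more than 9. The libraries without a number in their title (Ctrl, UIR and UUO) stood apart in macrophage counts, with a chi-square per degree of freedom of 5.04 to 6.04 between Ctrl and other controls against 1.51 to 2.15 among those, 7.95 to 11.1 against 5.72 in UIR and 14.4 to 15.9 against 6.37 in UUO. Without these 3 libraries 17 of 29 carriers were called in loop of Henle of UIR and 16 of UUO (30.5% and 30.2% of genes), 7 and 15 of 29 in principal cells (11.7% and 28.8%) and 7 and 13 of 30 in intercalated cells (15.9% and 24.9%). Classes were named by marker genes, for example Slc12a1 and Umod for loop of Henle, and the Slc25 genes were used neither for clustering nor for naming. For each library and class with at least 20 cells the UMIs were added up to a pool, and levels are given as CPM, the count of a gene per 1000000 UMIs of its pool. Fewer molecules per cell and a different mix of cells inside a class cannot be told apart in such sums.

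In control kidneys the carriers were most abundant in tubular cells. Their summed level was 6136 ± 671 CPM in intercalated cells (mean ± SD over libraries, n = 5), 5685 ± 508 in distal tubule, 5215 ± 408 in loop of Henle, 4038 ± 146 in PT and 3545 ± 161 in principal cells. Podocytes reached 1702 ± 97.9 CPM, endothelial cells 1535 ± 30.6 and macrophages 1068 ± 78.4 (n = 5 each), while T/NK cells reached 1449 ± 128 (n = 4). The ranges of libraries overlapped between neighbours among intercalated, distal tubule and loop of Henle pools, whereas each of the 5 tubular classes lay above each of these 4 other classes in all libraries.

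**Figure D1:**
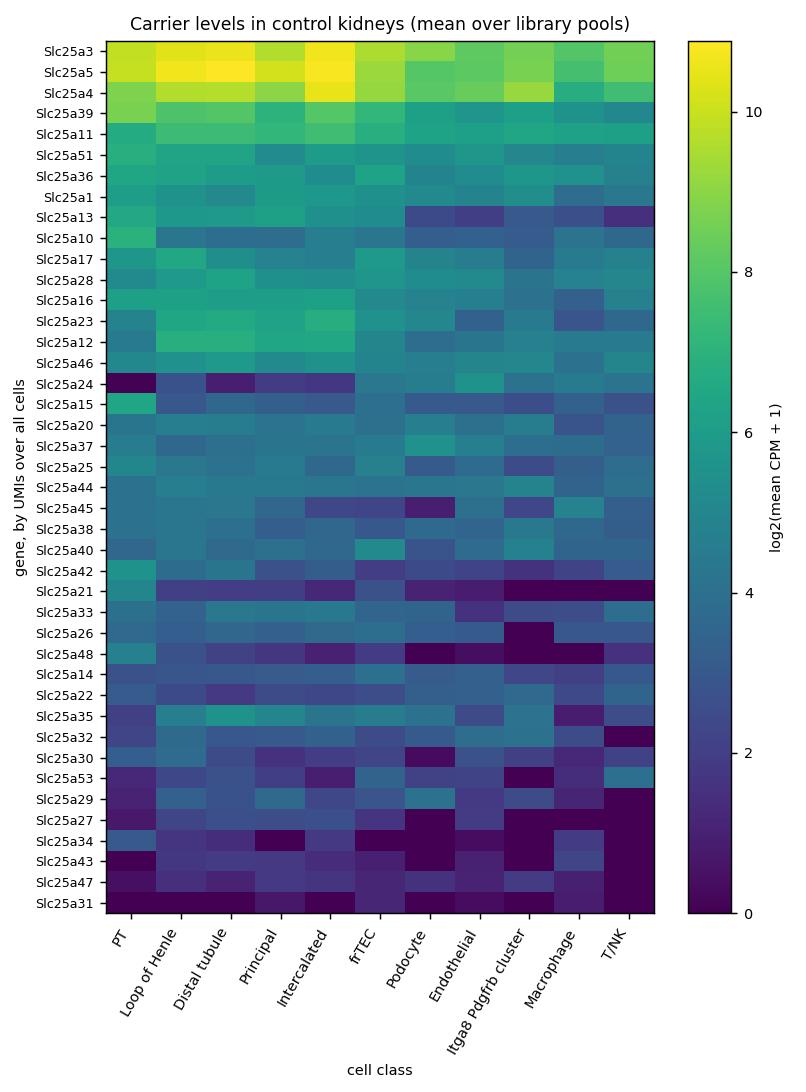
Level of 42 of the 43 carriers (rows, from the most to the least abundant over all cells) in each class of the control kidneys (columns), as colour on the scale log2(mean CPM + 1). Slc25a3, Slc25a5 and Slc25a4 are brightest in every tubular class, and Slc25a24 is dark in PT, distal tubule, principal and intercalated cells and brighter in endothelial cells (46.2 CPM).

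The 5 carriers with the highest mean level in control PT were Slc25a5, Slc25a3, Slc25a4, Slc25a39 and Slc25a10. Slc25a5, an ADP/ATP carrier, stood at 910, 996, 990, 1064 and 957 CPM in libraries Ctrl, N1, N2, AN1 and AN2, at 1052, 925 and 897 in UIR, UIR1 and UIR2, and at 917 and 971 in UUO1 and UUO2. Slc25a3, the phosphate carrier, stood at 955, 998, 949, 968 and 899 CPM in the same control libraries, at 1009, 878 and 907 in UIR and at 823 and 991 in UUO. For both genes the 3 groups overlapped. Slc25a4, the ADP/ATP carrier typical of heart and muscle, had 347, 462, 486, 458 and 427 CPM in control, 352, 347 and 354 in UIR and 292 and 373 in UUO. Slc25a39, a carrier needed for mitochondrial glutathione import, had 453, 401, 406, 429 and 370 CPM in control, 397, 376 and 361 in UIR and 360 and 388 in UUO. Groups overlapped for these genes as well. The dicarboxylate carrier Slc25a10 had 119, 125, 124, 133 and 115 CPM in control, 119, 118 and 121 in UIR and 103 and 116 in UUO, and the library UUO had only 14 PT cells and no PT pool.

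Some carriers were higher and others lower in PT than in loop of Henle. Between control PT and control loop of Henle, the ranges of the 5 libraries did not overlap for 10 carriers with PT above and 11 with PT below, of 38 with at least 50 UMIs in both classes. These were 26.3% and 28.9% of the carriers, where the same held for 17.6% and 25.2% of 11457 genes. The 10 carriers higher in PT included Slc25a10 (123 ± 6.70 against 18.2 ± 6.28 CPM, n = 5 each), the ornithine carrier Slc25a15 of the urea cycle (85.2 ± 3.53 against 6.86 ± 2.80), the oxoadipate carrier Slc25a21 (30.8 ± 2.90 against 3.20 ± 3.31) and the coenzyme A carrier Slc25a42 (46.1 ± 8.64 against 13.2 ± 4.55). The 11 carriers lower in PT included Slc25a3, Slc25a4, Slc25a5, Slc25a11 and Slc25a12. Against control endothelial cells 21 carriers were above and 3 below of 39 (23.8% and 42.8% of all genes compared), and against control macrophages 22 were above and 0 below of 37 (32.7% and 19%). No test was run on these differences, since the classes came from clusters of the same cells.

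The 2 aspartate/glutamate carriers stood in different proportion in different segments. Slc25a13 (citrin, the form typical of liver) made up 81.9% ± 1.49 of the summed Slc25a12 and Slc25a13 level in control PT (SD, n = 5), but 32.5% ± 3.32 in loop of Henle, 33.9% ± 2.20 in distal tubule and 33.1% ± 6.17 in intercalated cells. Slc25a12 (aralar) stood at 20.8 ± 2.13 CPM in PT and at 113 ± 15.1 in loop of Henle. Slc25a24, a calcium-regulated carrier that exchanges ATP-Mg for phosphate, was counted 2 times in all 44178028 UMIs of control PT, while its relative Slc25a23 reached 28.4 ± 1.22 CPM in PT and 86.2 ± 17.4 in loop of Henle. Endothelial cells had the highest Slc25a24 level among the control classes (46.2 ± 8.84 CPM) and similar values after injury (45.1 ± 1.61 in UIR and 43.9 ± 5.03 in UUO, n = 3 each).

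Next, injured and control kidneys were compared within each class by edgeR's quasi-likelihood test, adjusted by Benjamini-Hochberg over all genes tested, with calls at an adjusted p under 0.05. UIR and UUO were compared with the same control libraries. Fold changes are on the log2 scale with their standard error, after TMM normalization.

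Many carriers of the loop of Henle fell in both models, and Slc25a24 alone was called higher, a gene tested only because of its injured pools. The summed level of the carriers was 5215 ± 408 CPM in control (n = 5), 3045 ± 198 in UIR and 2861 ± 320 in UUO (n = 3 each), without overlap between control and injured libraries. In UIR 18 of the 36 carriers tested fell and 1 rose, where 15.1% of the 9995 genes tested fell and 14.9% rose. In UUO 18 fell and 1 rose, against 15.5% and 15.7% of genes. Before TMM scaling, the counting intervals of Slc25a28 and Slc25a40 in UIR and of Slc25a13 in UUO included no change. The ratio of Slc25a28 to control was 0.878 there, with an exact 95% interval of 0.719 to 1.08. The median log2 fold change of the 36 carriers was -0.65 in UIR and -0.75 in UUO, and that of all genes was 0.03 in both. The other 7 carriers did not pass the filter on low counts. Slc25a32, Slc25a33 and Slc25a42 are among the carriers that fell in each model, and passed it mainly through their control pools. Control and injured cells of this class lay almost wholly in different clusters, and within the clusters that held both, 0 of 17 carriers tested and 0.644% of genes were called in UIR. The UIR cells there were selected for likeness to control, since the clusters were made from the same expression values.

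Both ADP/ATP carriers fell, with Slc25a5 at 1509, 1611, 1643, 1447 and 1879 CPM in control libraries Ctrl, N1, N2, AN1 and AN2, 930, 801 and 729 in UIR and 867, 672 and 576 after UUO. All 6 injured pools lay below all 5 control pools, and the log2 fold change was -1.25 ± 0.16 in UIR and -1.46 ± 0.16 in UUO (edgeR adjusted p = 1.15e-06 and 1.08e-07). Slc25a4 fell by 1.26 and 1.29 and Slc25a3 by 1.10 and 1.14. Slc25a12, the aspartate/glutamate carrier, read 124, 128, 109, 114 and 89.4 CPM in control, 43.0, 44.6 and 46.2 in UIR and 29.1, 42.9 and 35.3 after UUO. The injured pools again lay below all controls, with changes of -1.60 ± 0.15 and -1.91 ± 0.16 (edgeR adjusted p = 6.25e-09 and 1.26e-09), while Slc25a13 fell by 0.52 in UUO and had a change of -0.40 in UIR that did not pass the test. Before TMM scaling, the UUO ratio of Slc25a13 to control was 0.845, with an exact 95% interval of 0.671 to 1.07. Slc25a13 made up 51.9% ± 2.40 of the pair in UIR and 55.7% ± 2.81 in UUO.

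Of the 2 glutathione carriers tested both fell in UIR and 1 in UUO, where Slc25a40 did not pass the test (-0.73). Before TMM scaling, the UIR ratio of Slc25a40 to control was 0.691, with an exact 95% interval of 0.478 to 1.03. Slc25a39 read 206, 232, 254, 161 and 284 CPM in control loop of Henle, 116, 113 and 108 in UIR and 112, 118 and 95.5 in UUO. No injured pool overlapped the controls (-1.28 ± 0.15 and -1.32 ± 0.16, edgeR adjusted p = 3.86e-07 and 3.64e-07). Of the 9 carriers of cofactors and nucleotides tested, 6 fell in each model, among them Slc25a42 (fell by 1.77 in UIR and by 2.21 in UUO). Slc25a42 had 23 UMIs in control, 82 in UIR and 21 in UUO. It passed the filter on low counts through its control pools alone, so its fall supports nothing by itself. Slc25a33 and Slc25a32, also among these 6, had 19 and 23 UMIs in control, 49 and 110 in UIR and 17 and 40 in UUO. These 2 were likewise tested mainly because of their control pools, and their falls support nothing by themselves either. The oxoglutarate carrier Slc25a11 fell by 0.90 and by 0.99. The carnitine/acylcarnitine carrier, the ornithine carrier and the 3 uncoupling-protein-like members tested were not called in either model.

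**Figure D2:**
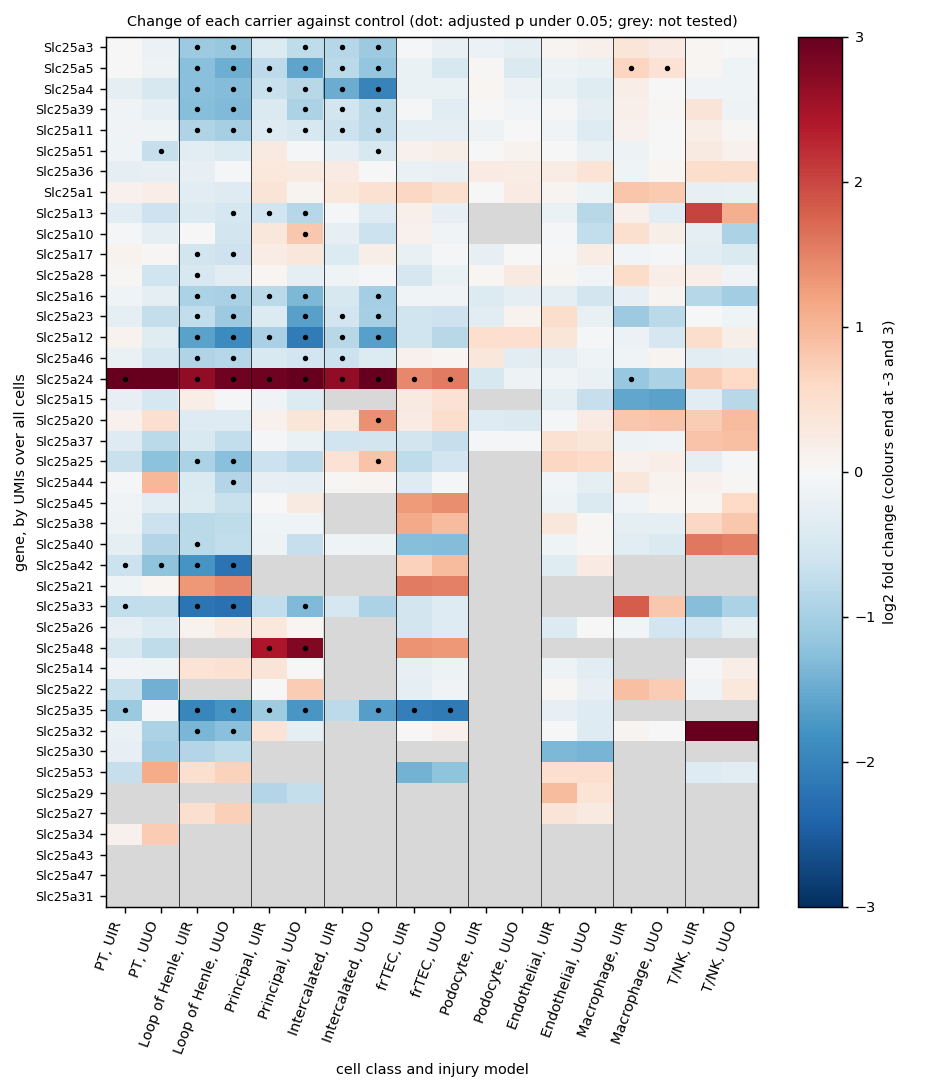
Change of 42 of the 43 carriers (rows) against control in each class and model (columns), as log2 fold change, with colours ending at -3 and 3. Dots mark edgeR adjusted p under 0.05 and grey marks genes not tested. Dotted blue squares stand in the loop of Henle, principal and intercalated columns of both models, among them Slc25a3 in loop of Henle and intercalated cells and Slc25a4 in all 3 classes, and Slc25a24 is red with dots in loop of Henle, principal, intercalated and frTEC (tubular cells with failed repair markers) columns of both models and in PT of UIR.

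Slc25a24 was called higher in loop of Henle, principal and intercalated cells of both models. In each class too few control pools reached the filter on low counts, so it was tested only because of its injured pools. These calls therefore support nothing by themselves. In loop of Henle it read 10.5, 4.72, 5.19, 8.35 and 0 CPM in control libraries Ctrl, N1, N2, AN1 and AN2 (12 UMIs in all), 47.4, 45.5 and 52.5 in UIR and 60.4, 55.7 and 55.4 after UUO. The groups did not overlap, and the changes were 2.67 ± 0.32 and 2.91 ± 0.32 (edgeR adjusted p = 3.65e-07 and 8.46e-08). In principal cells it read 5.16, 1.87, 0, 3.60 and 3.58 CPM in control, 39.5, 23.2 and 21.5 in UIR and 57.1, 52.8 and 70.1 after UUO. All 3 groups were apart there, with changes of 2.92 ± 0.37 and 3.93 ± 0.34 (edgeR adjusted p = 3.57e-05 and 9.66e-08). The control principal pools held 14 UMIs of it in all, and none reached the filter on low counts. In intercalated cells it read 2.59, 9.59, 0, 0 and 0 CPM in control, 17.5, 18.7 and 20.7 in UIR and 17.3, 34.8 and 37 after UUO. Injured pools lay above all controls there too (2.67 ± 0.55 and 3.33 ± 0.52, edgeR adjusted p = 0.00165 and 4.85e-05). The control intercalated pools held 6 UMIs of it in all, and again none reached the filter. The related Slc25a23 fell in loop of Henle by 0.73 in UIR and by 1.09 in UUO.

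PT had very little Slc25a24 in any group. There were 2 UMIs in control PT and 35 of 14072469 in UIR PT, a ratio of 54.9 with an exact 95% interval of 14.1 to 471 that covers counting error only, and a level of 2.35 ± 0.602 CPM (n = 3) in UIR. It passed the filter on low counts in PT through its injured pools alone, so its rise there supports nothing by itself. This gene was chosen here after its values were seen, since its PT level lies below the 20 CPM set for named members. Macrophage markers also differed between these pools, with a summed level of 6.61 to 11.3 CPM in control PT and 59.9 to 113 in UIR PT, and their part in the result was not tested. In loop of Henle the same 5 markers summed to 0 to 5.42 CPM in control, 37.3 to 54.3 in UIR and 47.3 to 68.4 in UUO, and the 6 endothelial markers to 0 to 3.50, 5.41 to 8.88 and 6.27 to 16. The 7 frTEC markers stood at 2123 to 3240 CPM in control loop of Henle, 17384 to 22391 in UIR and 20385 to 22139 in UUO, without overlap between control and injured pools. The part of these markers in the results was not tested.

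**Figure D3:**
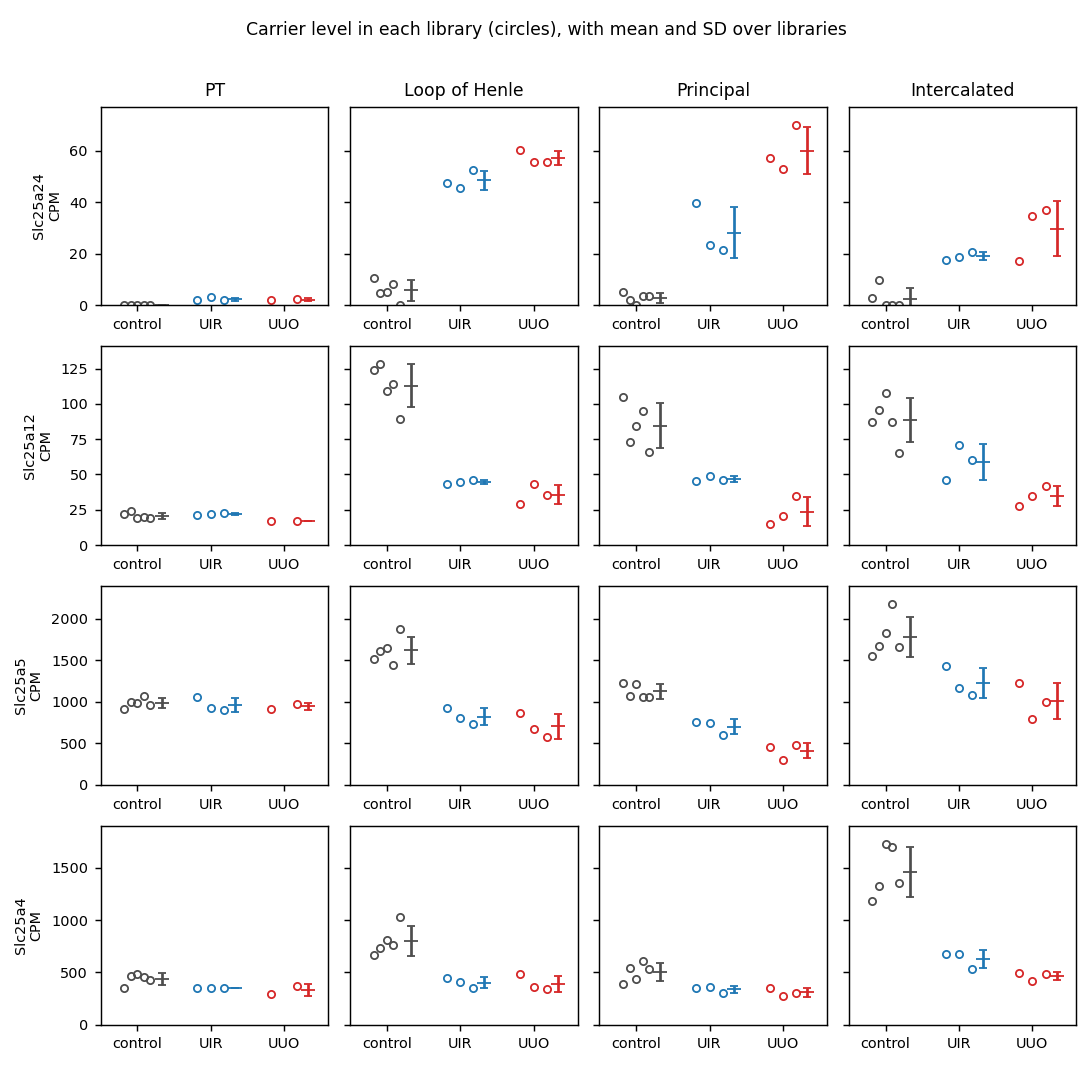
Level (CPM, y axes) of Slc25a24, Slc25a12, Slc25a5 and Slc25a4 (rows) in PT, loop of Henle, principal and intercalated cells (columns) by group (x axes), with 1 circle per library and bars for mean and SD. Slc25a24 is higher in injured than control pools of the 3 distal classes and the other carriers are lower there except for overlapping Slc25a12 values in intercalated UIR pools, while the PT circles of Slc25a5 and Slc25a4 overlap between groups and those of Slc25a12 do between control and UIR.

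In principal cells the ADP/ATP carriers and Slc25a12 fell in both models. Of 34 carriers tested, 8 fell and 2 rose in UIR (6.19% and 7.61% of 10198 genes), and 13 fell and 3 rose in UUO (16.1% and 16.8%), with medians of -0.15 and -0.36 beside 0.00 and 0.01 over all genes. Slc25a5 read 1222, 1072, 1210, 1061 and 1052 CPM in control, 759, 742 and 596 in UIR and 452, 305 and 479 after UUO. The groups formed 3 separate ranges, with changes of -0.78 ± 0.16 and -1.59 ± 0.17 (edgeR adjusted p = 0.00324 and 1.07e-06). Slc25a12 read 105, 72.8, 84.3, 94.9 and 65.6 CPM in control, 45.3, 49.0 and 46.1 in UIR and 15.1, 20.5 and 35.1 after UUO. It was also separate in all 3 groups (-0.98 ± 0.20 and -2.09 ± 0.23, edgeR adjusted p = 0.00288 and 1.15e-06). Beside Slc25a24, Slc25a48 rose in both models (by 2.42 ± 0.61 and 2.77 ± 0.58 on the log2 scale, from 2.32 to 14.8 and 17.8 CPM), and Slc25a10 rose in UUO (0.81 ± 0.21). Slc25a48 had 10 control UMIs and, like Slc25a24, was tested only because of its injured pools, so its rise supports nothing by itself. Without the library UIR2 only 3 carriers were called in UIR principal cells.

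In intercalated cells both ADP/ATP carriers and the phosphate carrier fell in both models. Of 25 carriers tested, 8 fell and 1 rose in UIR (8.16% and 7.02% of 8616 genes), and 11 fell and 3 rose in UUO (14% and 12.8%), with medians of -0.49 and -0.55 beside 0.02 and 0.01 over all genes. Before TMM scaling, the UUO ratio of Slc25a51, 1 of those that fell, was 0.928, with an exact 95% interval of 0.759 to 1.14. Slc25a4 read 1186, 1326, 1725, 1701 and 1355 CPM in control, 678, 678 and 534 in UIR and 490, 419 and 484 after UUO. It was lower in all injured pools (-1.50 ± 0.18 and -2.01 ± 0.18, edgeR adjusted p = 5.81e-06 and 6.13e-08), and Slc25a5 made up 55.0% ± 2.10 of the summed pair in control, 66.0% ± 2.48 in UIR and 68.1% ± 3.12 in UUO. Slc25a3 read 1418, 1554, 1778, 1965 and 1362 CPM in control, 1254, 1039 and 955 in UIR and 1128, 834 and 964 after UUO. The injured range was again below the control range (-0.86 ± 0.18 and -1.08 ± 0.18, edgeR adjusted p = 0.00162 and 9.75e-05). Slc25a12 read 86.9, 95.9, 108, 86.9 and 65.5 CPM in control, 45.9, 71.1 and 60.2 in UIR and 27.4, 34.8 and 41.9 after UUO. Its UIR and control ranges overlapped and its UUO range lay below both (-0.84 ± 0.18 and -1.64 ± 0.20, edgeR adjusted p = 0.00261 and 2.84e-06). The carnitine/acylcarnitine carrier Slc25a20, needed for fatty acid oxidation, read 10.4, 36, 22.6, 25.3 and 10.7 CPM in control, 30.4, 27.4 and 26.8 in UIR and 83.8, 51.4 and 58.0 after UUO. All UUO pools lay above the other libraries, and it rose in UUO (1.37 ± 0.30, edgeR adjusted p = 0.00162).

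Control and injured cells of these 3 classes were spread differently over clusters. Of the control loop of Henle cells all but 4 lay in the clusters t19 and t21, while t00, t03 and t12 held 1021 UIR and 448 UUO cells. Of 298 control principal cells all but 5 lay in t09, t22 and t23, while t05 and t28 held 131 and 30 of the 375 UIR cells and 199 and 59 of the 274 UUO cells. All 184 control intercalated cells lay in t11, t20 and t26, with 280 of 439 UIR cells and 34 of 219 UUO cells, and the others lay in t08 and t33. Cluster t33, with 25 UIR and 28 UUO cells, had a median of 43059 UMIs per cell, 8.22 times the library median. Its leading genes included those of both t05 (Sprr2f, Plet1) and t08 (Dmrt2, Foxi1). Whether it holds doublets, and its part in the intercalated results, was not tested. The pools also differed in mitochondrial UMIs, with 19.8% to 23.9% in control loop of Henle, 9.76% to 11.7% in UIR and 8.85% to 10.3% in UUO. The loop of Henle markers summed to 23745 to 30611 CPM in control, 15109 to 15760 in UIR and 12229 to 13264 in UUO, and the principal markers of principal cells to 13262 to 22937, 8320 to 9861 and 3232 to 3912. The intercalated markers of intercalated cells summed to 7734 to 9262 CPM in control, 4926 to 7935 in UIR and 4619 to 6800 in UUO, and the principal markers there to 1532 to 3069, 1064 to 3218 and 453 to 944. The distal tubule markers stood at 1012 to 2152 CPM in control principal pools, 494 to 760 in UIR and 67.7 to 253 in UUO, and at 309 to 803, 64.4 to 176 and 36.1 to 37.5 in intercalated pools. The frTEC markers stood at 1578 to 2145, 3398 to 4477 and 3968 to 6390 CPM in principal cells of the 3 groups and at 1403 to 1953, 2852 to 4267 and 3838 to 5135 in intercalated cells.

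The falls were therefore recomputed for UIR within the clusters with at least 20 control and 20 UIR cells (t19 and t21, t09 and t22, and t11, t20 and t26), a comparison chosen after the data had been seen. The clusters were made from the expression of these same cells, so the UIR cells in them were selected for likeness to control. In loop of Henle they were 6.24% of UIR cells, beside 98.4% of control cells. Few calls there thus cannot tell whether loop of Henle cells changed. In loop of Henle 0 of 17 carriers tested were called (edgeR, 1 at an unadjusted p under 0.05), where 0.644% of genes were, and the median was -0.16. Slc25a12 stood at -0.14 ± 0.27 and Slc25a5 at 0.25 ± 0.17 there, against -1.60 and -1.25 over all clusters. This comparison rested on 2 UIR pools of 30 and 27 cells, with mitochondrial UMIs of up to 24% in control and 22.3% to 22.8% in UIR. In principal cells Slc25a5 (-0.51 ± 0.12), Slc25a4 (-0.55 ± 0.15) and Slc25a12 (-0.71 ± 0.17) still fell, 3 of 22 carriers tested (6.15% of genes, edgeR adjusted p = 0.00647, 0.0189 and 0.00741). In intercalated cells Slc25a4 (-1.23 ± 0.18), Slc25a3 (-0.67 ± 0.17) and Slc25a11 (-0.51 ± 0.15) fell, 3 of 24 (7.86% of genes, edgeR adjusted p = 7.17e-05, 0.0147 and 0.0436), while Slc25a5 (-0.52 ± 0.17) and Slc25a12 (-0.48 ± 0.18) no longer passed (edgeR adjusted p = 0.0548 and 0.126). The mitochondrial share was not matched there, with 21.1% to 22.4% in control and 14.9% to 17.5% in UIR principal pools and 22.1% to 25% and 15.1% to 17.4% in intercalated pools, and its part in these falls was not tested. Slc25a24 was too sparse to be tested in these clusters, where it had 29 UMIs in UIR and 5 in control principal cells, 60 and 6 in intercalated cells, and 6 and 11 in loop of Henle. Its levels were 6.26 to 14.5 CPM in UIR and 0 to 3.53 in control principal pools, 13.5 to 15.6 and 0 to 9.59 in intercalated pools, and 10.0 to 15.3 and 0 to 10.6 in loop of Henle.

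**Figure D4:**
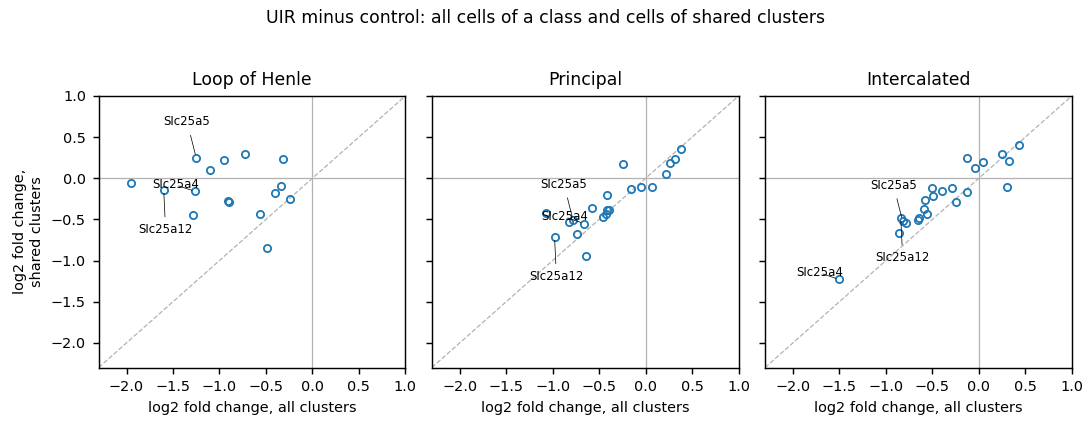
Log2 fold change of carriers from control to UIR over all cells of a class (x axes) and within clusters with at least 20 cells of both groups (y axes) in loop of Henle, principal and intercalated cells, with the dashed line of equal change. Points of loop of Henle lie mostly above the dashed line and near 0 on the y axis (median -0.16), while Slc25a4 of intercalated cells stays near the line at -1.23.

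Of the 38 carriers tested in PT, 30 had a change below 0 in each model, as did 51.9% of genes in UIR and 54.2% in UUO, and most changes did not pass the test. In UIR 3 of the 38 carriers tested fell and 1 rose, where 3.04% and 6.83% of 11793 genes did, and in UUO 2 fell and 0 rose, where 1.49% and 2.88% did. The medians were -0.14 and -0.40, beside -0.01 and -0.05 over all genes. Slc25a42 read 42.6, 49.7, 57.4, 34.1 and 46.9 CPM in control, 27.8, 26.9 and 33 in UIR, and 24.8 and 17.3 in UUO1 and UUO2. All injured pools were below the controls (-0.65 ± 0.14 and -1.20 ± 0.32, edgeR adjusted p = 0.00782 and 0.0427). The NAD carrier Slc25a51 read 105, 130, 119, 109 and 108 CPM in control, 101, 95.6 and 114 in UIR and 87.7 and 61.8 after UUO. Both UUO pools and 2 of the 3 UIR pools lay below the control range, and the UUO change passed (-0.69 ± 0.17, edgeR adjusted p = 0.0321). The pyrimidine nucleotide carrier Slc25a33 fell in UIR by 0.74 and Slc25a35 by 1.12, both under the 20 CPM minimum. The frTEC markers summed to 264 to 367 CPM in control PT, 696 to 1332 in UIR and 4926 to 7871 in the 2 UUO pools, and their part in these falls was not tested. The PT class leaves out clusters t13 and t14, which were named frTEC with PT as the next class. It also leaves out t24, which scored highest for PT but stayed unnamed. These clusters held 196, 123 and 102 UIR cells and 31, 87 and 14 UUO cells, beside 1748 and 112 in the PT class. The UUO values rest on 2 pools of 40 and 58 cells, and no carrier was called without UUO1, without UUO2 or without N1. The UUO call of Slc25a42 was also lost without UIR, UIR1, UIR2 or AN2 (edgeR adjusted p from 0.0518 to 0.0657) and that of Slc25a51 without N2 (0.0509), while the call of Slc25a42 in UIR was lost without UIR1 (log2 fold change -0.59, edgeR adjusted p = 0.0763).

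The change in PT differed from that in loop of Henle for several carriers. In a joint model with the library as a block, the UIR change was higher in PT for 13 of 42 carriers and lower for 1 (10.3% and 7.82% of 12703 genes), and the UUO change was higher for 7 and lower for 0 (5.09% and 5.34%). The difference was 1.66 ± 0.19 for Slc25a12, 1.17 ± 0.13 for Slc25a5 and 1.11 for Slc25a39 in UIR (edgeR adjusted p = 8.10e-13 and 6.40e-14 for the first pair). Of the 35 carriers that passed the filter on low counts in both classes, 12 were higher and 1 lower in UIR (12.3% and 9.82% of 9468 genes) and 6 and 0 in UUO (5.95% and 6.84%). These still include Slc25a24 in UIR, which rests on 2 UMIs in control PT, while Slc25a34, with 5 control, 7 UIR and 1 UUO UMIs in loop of Henle, is left out. The one carrier with a lower change in PT was Slc25a21 (-1.48 ± 0.55, edgeR adjusted p = 0.0481). Its control loop of Henle level was low, as given above, and it passed the filter there only because of its injured pools. That difference therefore supports nothing by itself. In UIR the 12 also include Slc25a33 and Slc25a42, which passed it in loop of Henle mainly through control pools. The clusters of control and injured loop of Henle cells differ as described above, and this comparison includes that difference. The loop of Henle class holds clusters t00, t03 and t12 of mostly injured cells, while PT lacks t13, t14 and t24. Loop of Henle in turn lacks t02, which scored highest for that class (1.63) but stayed unnamed. Cluster t02 held 0 control, 197 UIR and 282 UUO cells. The part of these divisions in the result was not tested.

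In frTECs, the epithelial cells with failed repair markers (Spp1, Krt8 and Vcam1 among them), Slc25a24 rose in both models. It read 30.3, 15.2 and 11 CPM in Ctrl, N2 and AN2, 55.7, 46.7 and 47.1 in UIR and 51.2, 59.6 and 53.7 after UUO. The injured pools lay above the control pools (1.43 ± 0.32 and 1.56 ± 0.32, edgeR adjusted p = 0.00975 and 0.00429), and both calls were lost without AN2 (edgeR adjusted p = 0.113 and 0.0611). Slc25a35 read 49.2, 5.06 and 16.5 CPM in these control libraries, 9.28, 3.54 and 5.86 in UIR and 5.21, 4.75 and 7.30 after UUO. Its groups overlapped, and its fall of 2.06 and 2.12 (edgeR adjusted p = 0.0401 and 0.0326) was lost without Ctrl (-1.08 and -1.15). The UIR call was also lost without UIR1, UIR2, UUO2 or AN2 (edgeR adjusted p from 0.0517 to 0.101) and the UUO call without UUO1, UUO or AN2 (0.0528 to 0.0770). These were the 1 rise and 1 fall among 36 carriers tested in each model, where 5.53% of 11507 genes rose and 5.0% fell in UIR and 6.87% and 6.15% did in UUO. Most control cells of this class, 79 of 107, lay in clusters t15 and t17, led by Fst and Slc4a11 and by Uncx and Slc14a2, which held 211 of 766 UIR and 100 of 368 UUO cells. The other injured cells lay in t07, t13, t14 and t30, with Havcr1 among the leading genes of t13 and t14. Within t15 and t17 Slc25a24 read 6.96 to 34.7 CPM in the 5 control libraries (17 UMIs in all), 47.7 to 55.5 in UIR and 51.6 to 57.1 in UUO, values computed after the data had been seen and not tested, since only 1 control library had 20 cells there. The stroma markers summed to 19.2 to 344 CPM in control frTEC pools, 985 to 1703 in UIR and 1086 to 1887 in UUO, and their part in the rise was not tested.

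Against control, macrophages were the remaining class with calls. Slc25a5 read 215, 212, 199, 221 and 183 CPM in control, 389, 292 and 296 in UIR and 302, 275 and 304 after UUO. Both injured groups lay above the controls, and it rose by 0.65 ± 0.14 and 0.44 ± 0.14 (edgeR adjusted p = 0.00428 and 0.0409). Slc25a24 read 30.8, 16.6, 17.5, 23.1 and 19.3 CPM in control, 7.08, 11.1 and 10.1 in UIR and 15.2, 10.1 and 11.3 after UUO. Injured macrophages were below the control range, and the fall passed in UIR (-1.14 ± 0.35, edgeR adjusted p = 0.0494). This call was lost without any 1 of the 3 UIR or 5 control libraries, or without UUO2 (edgeR adjusted p from 0.0516 to 0.151). The calls were 1 rise and 1 fall of 30 carriers in UIR (3.77% and 2.84% of 9400 genes) and 1 rise and 0 falls in UUO (5.99% and 5.13%). The UUO call of Slc25a5 was lost without any 1 of 9 libraries, with edgeR adjusted p from 0.0564 to 0.136. Cluster 02, of low depth (median 1422 UMIs per cell), held 57 of 321 control macrophages, 832 of 2059 in UIR and 991 of 2311 in UUO. The PT markers in these pools summed to 1001 to 2853 CPM in control, 322 to 905 in UIR and 45.9 to 89.2 in UUO, and the frTEC markers to 99.3 to 231, 400 to 546 and 892 to 1609, and their part in the results was not tested.

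No carrier was called in the remaining classes with control pools. In endothelial cells 0 of 36 passed edgeR in UIR and in UUO (1.97% and 12.2% of 11019 genes), with 3 and 6 at an unadjusted p under 0.05. In podocytes 0 of 17 passed (1.27% and 3.22% of 5962 genes), with 0 and 2 at an unadjusted p under 0.05. In T/NK cells 0 of 32 passed (0.389% and 1.54% of 9518 genes), with 2 and 3 at that level, and in the unnamed cluster led by Itga8 and Pdgfrb 0 of 6 passed in UUO (2.58% of 3486 genes), with 3. DESeq2 called 0 in each of these comparisons. Stromal cells, dendritic cells and B cells had too few control cells for a pool, and distal tubule had too few injured cells, with 299 UIR, 231 UUO and 1 control cell in a cluster with Slc12a3 among its leading genes that met no class's limits and was not counted.

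Finally, the 2 models were compared directly. In principal cells 3 carriers were lower in UUO than UIR and 1 higher (3.07% and 2.95% of genes): Slc25a12 (-1.12 ± 0.24), Slc25a5 (-0.81 ± 0.18), Slc25a23 (-1.20 ± 0.21) and Slc25a24 (1.01 ± 0.24), with edgeR adjusted p of 0.0107, 0.0126, 0.00222 and 0.0197. Slc25a23, another ATP-Mg/phosphate carrier, read 80.4, 65.4, 90.8, 79.3 and 64.5 CPM in control, 46.4, 74.8 and 62.1 in UIR and 22, 29 and 31.9 after UUO. Its UUO range was the lowest and its UIR and control ranges overlapped. In intercalated cells Slc25a12 was lower (-0.81 ± 0.20) and Slc25a20 higher (1.07 ± 0.25) in UUO, 1 in each direction (1.64% and 1.09% of genes, edgeR adjusted p = 0.0286 and 0.0197). Of the UIR cells 200 of 375 principal and 280 of 439 intercalated cells lay in the clusters shared with control, against 16 of 274 and 34 of 219 UUO cells, and the part of this difference was not tested. In stromal cells Slc25a5 read 355, 298 and 317 CPM in UIR and 228, 194 and 189 in UUO, ranges that did not overlap. It was the 1 carrier lower and none was higher of 32 tested (-0.69 ± 0.15, edgeR adjusted p = 0.0243, with 0.869% and 1.76% of 10823 genes). A cluster led by Myh11, Rgs5 and Ren1, genes of smooth muscle, pericytes and renin cells, supplied 304 of the 679 UIR and 153 of the 583 UUO cells of this class. Slc25a5 read 487, 376 and 428 CPM in UIR and 389, 326 and 325 in UUO within that cluster, where the models overlapped, and 287, 264 and 234 against 174, 159 and 126 in the other stromal clusters, where they did not. Tubular markers moved the same way in these pools, with frTEC markers at 3379 to 6435 CPM in UIR and 1377 to 2944 in UUO, PT markers at 213 to 791 and 34.6 to 76.6 and loop of Henle markers at 63.6 to 136 and 12 to 33.9. Their part in the result was not tested, and the call was lost with free RNA subtracted. The values by cluster were computed after the data had been seen and were not tested.

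Several of these calls were lost without 1 library. In principal cells the call of Slc25a12 was lost without UIR1, UUO1 or UUO (log2 differences of -1.07 to -0.92, edgeR adjusted p from 0.0501 to 0.0645), that of Slc25a5 without UIR1 or UUO1 (0.0650 and 0.0614) and that of Slc25a24 without UIR1, UIR2 or UUO (0.0606 to 0.103). In intercalated cells the call of Slc25a12 was lost without UIR1, UIR2, UUO1, UUO2 or UUO (log2 differences of -0.95 to -0.64, edgeR adjusted p from 0.0501 to 0.212) and that of Slc25a20 without UIR1, UIR2, UUO2 or UUO (0.85 to 1.14, edgeR adjusted p from 0.0552 to 0.0930). In stromal cells the call of Slc25a5 was lost without UIR, UIR2, UUO1 or UUO2 (-0.73 to -0.62, edgeR adjusted p from 0.0591 to 0.137). No carrier differed between the models in PT (0.0509% of genes), loop of Henle (0.410%), frTEC (0.139%), endothelial cells (2.82%), macrophages (1.85%), T/NK cells (1.46%), dendritic cells (0.664%), podocytes (0.101%) or B cells (0.117%), with 4, 3, 2, 2, 1, 2, 2, 1 and 0 at an unadjusted p under 0.05 by edgeR and 0 by DESeq2.

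Partners of the carriers also fell in loop of Henle. Of 11 outer membrane and shuttle partners, 9 fell and 1 rose in loop of Henle of each model, with medians of -1.11 and -1.20, where 15.1% and 15.5% of all genes fell and 14.9% and 15.7% rose. In intercalated cells 9 and 8 of the 11 fell (8.16% and 14% of genes) and in principal cells 3 and 8 (6.19% and 16.1%). As for the carriers, the clusters of control and injured cells differed. The loop of Henle partners that fell included Got2, the mitochondrial aspartate aminotransferase (242 CPM in control, 98.8 in UIR and 82.4 in UUO), and Mdh1, the cytosolic malate dehydrogenase (1070, 451 and 389 CPM), both part of the malate-aspartate shuttle, and the rise was that of Tspo (311, 565 and 504 CPM). Of 7 regulators of mitochondrial genes 6 fell in each model, among them the coactivator Ppargc1a (302, 150 and 146 CPM) and the nuclear receptor Esrra (71.3, 34.4 and 33.5 CPM). In PT 0 of the 11 partners were called in either model, and of the 7 regulators 1 fell in UIR and 0 in UUO, where 3.04% and 1.49% of all genes fell. Of 11 carriers with other names tested, 6 fell in loop of Henle of each model, including both subunits of the pyruvate carrier (Mpc1 941, 396 and 367 CPM, and Mpc2 1185, 944 and 838 CPM). Of 11 proteins for carrier import, 3 fell in UIR and 4 in UUO. The uncoupling protein Ucp2 rose in UIR in PT (1.18 ± 0.23, edgeR adjusted p = 0.00335) and in loop of Henle (0.71 ± 0.18, edgeR adjusted p = 0.00351). These genes were named after their values were seen.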

How the data were processed

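Single cell RNA sequencing (10x 3' chemistry, version 3) was performed on 5 control, 3 UIR and 3 UUO kidney libraries. The authors deposited raw UMI counts of 28692 genes for every barcode, aligned to mm10 with Cell Ranger 3.1.0 per the file headers (the study's methods name a later version), and the ambient RNA and doublet removal of the study is not part of these counts. A UMI count does not depend on gene length, but free RNA and dissociation affect it.

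Barcodes with at least 1000 UMIs, 200 genes and at most 30% mt- UMIs were kept, those over 5% hemoglobin and the 7.5% with the highest doublet scores per library were left out, and cells were clustered (2000 variable genes, 40 components, 20 neighbors, leidenalg 0.10.2 at resolution 1) and named by marker lists. A cluster needed 3 detected markers, a mean log2 difference of 1 (2 with none of its own markers among its top 10 genes) and a margin of 0.5 over the next class, limits set after marker tables had been seen. Where loop of Henle, distal tubule, principal or intercalated led the classes besides frTEC at 1 or more, frTEC was not ranked. Such clusters needed no margin over frTEC, while PT clusters did, and t24 (2.57 for PT, 2.17 for frTEC) missed it. UMIs were summed per library and class with at least 20 cells and tested with edgeR 4.0.16 (R 4.3.3, TMM, filterByExpr, quasi-likelihood), 3 groups in 1 model. The study gives 5 naive mice and 3 mice per model for this assay, as many as there are libraries, and p-values measure the spread between libraries. Intervals cover counting error only. The values of 1 carrier are not reported here, although counts, medians and sums include it.

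The members, lists and tests were chosen with earlier results of these data known. Values by library are given for the 5 carriers highest in control PT and for up to 3 carriers with the smallest adjusted p per class and injury contrast among those called, if the higher group reached 20 CPM. Carriers called between the models are given likewise. On simulated counts with 200 changed genes, the test recovered 91 of 100 genes at a log2 change of 1 in loop of Henle of UIR and 85 in UUO, 100 and 53 in PT, 94 and 94 in endothelial cells, and 73 and 76 in macrophages. Alternatives were DESeq2 1.42.0, RLE scaling, no filter, other mt- limits, doublets kept, mt- genes left out, free RNA subtracted, 1 control set, a replicate block, each library left out and, added after the data had been seen, shared clusters, free RNA without Cyp4b1 and the unnumbered libraries left out together. The main model did not pair libraries by the shared numbers in their titles, and whether these mark pairs was not settled.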

Additional observations from a re-analysis of the deposited data

Results flagged for a closer look

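Slc25a24 in control intercalated cells was 9.59 CPM in library N1 and 0 to 2.59 in the other 4, farther from them than expected in about 1 of 20 groups, and it was 1 of 22 groups so marked.

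The change in PT differed from the change in loop of Henle by a test of the difference itself. In UIR it was higher in PT on the log2 scale by 1.66 for Slc25a12, 1.17 for Slc25a5, 2.39 for Slc25a24, 3.11 for Slc25a34, 1.36 for Slc25a33, 0.78 for Slc25a16, 1.02 for Slc25a3, 0.92 for Slc25a4, 1.08 for Slc25a42, 0.76 for Slc25a11, 1.11 for Slc25a39 and 0.60 for Slc25a17, and for Slc25a21 the difference was -1.48. In UUO it was higher by 1.36 for Slc25a5, 1.59 for Slc25a44, 4.30 for Slc25a34, 0.96 for Slc25a3, 0.84 for Slc25a4, 0.80 for Slc25a11 and 0.97 for Slc25a39. The value of Slc25a24 rests on 2 UMIs in control PT, and that of Slc25a34 on 5 control, 7 UIR and 1 UUO UMIs in loop of Henle. Slc25a21 was low in control loop of Henle and passed the filter there only because of its injured pools. Slc25a33 and Slc25a42 passed it there mainly because of their control pools. These differences also include the way injured cells were divided among classes, as described above.

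UUO and UIR differed for Slc25a12 (-1.12), Slc25a5 (-0.81), Slc25a24 (1.01) and Slc25a23 (-1.20) in principal cells, for Slc25a12 (-0.81) and Slc25a20 (1.07) in intercalated cells and for Slc25a5 (-0.69) in stromal cells.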

How the results depend on the processing

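Of the counts of carriers that answer a comparison, 635 were equal to the main count or within 1.5 times and 103 moved. Equal counts of 0 are included, and direction was not checked for these counts. Of the named carriers' fold changes 704 kept direction and call, 111 kept direction and lost the call, and 0 reversed. Counts of carriers called moved as follows, and the cause was not tested. With only the AN libraries as controls they were 11 in loop of Henle UIR, 3 in principal UIR, 1 in PT UIR, and 0 in PT UUO and in macrophages of both models. With only the N libraries they were 4 in intercalated UIR, 2 in principal UIR, 1 in endothelial UUO and 0 in macrophages of both models. With a 50% mt- limit they were 14 in intercalated UIR, 7 in PT UIR, 4 in PT UUO, and 1 and 0 in macrophages of UIR and UUO. With a 15% limit they were 0 in PT UIR, 5 for the difference between PT and loop of Henle in UIR, and 0 between the models in principal cells, intercalated cells and stromal cells, and at most 1 control pool was left in the 3 distal classes, so that they were not compared with control and the 5 rests on the control loop of Henle pool of Ctrl alone. With no filter on low counts they were 7 in PT UIR, 6 in PT UUO and 1 between the models in macrophages and in T/NK cells. With doublets kept they were 6 in PT UUO and 2 in macrophage UUO. With free RNA subtracted they were 1 in PT UUO, 1 in endothelial UUO, 4 and 3 in macrophages of UIR and UUO, 1 in frTEC of each model and 0 between the models in stromal cells, and without the marker Cyp4b1 only the endothelial value differed, at 0. The estimated free RNA share reached 100% in a frTEC pool, so that correction does not bear on frTEC. DESeq2 called 4 in PT UUO, RLE scaling 1 in PT UUO, and 2 were called in macrophage UUO with mt- genes left out. Within shared clusters they were 0 in loop of Henle, 3 in principal and 3 in intercalated UIR. Without Ctrl, UIR and UUO together they were 4 in PT UUO, 2 in endothelial UUO, 1 in podocyte UUO, 0 in macrophage UUO, 1 in frTEC of each model, and 1 in macrophages and 0 in stromal cells between the models.

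Leaving out 1 library at a time gave 16 to 20 in loop of Henle UIR and 17 to 21 in UUO, 3 to 11 and 13 to 18 in principal cells, 6 to 10 and 11 to 14 in intercalated cells, 2 to 6 and 0 to 3 in PT, 0 to 3 and 0 to 4 in frTEC, 1 to 2 and 0 to 1 in macrophages, 0 to 2 in endothelial UUO and 0 to 1 in the Itga8 Pdgfrb cluster. Between the models it gave 1 to 4 in principal cells, 0 to 2 in intercalated cells, 0 to 1 in stromal cells and 0 to 1 in macrophages.

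With the replicate block, macrophage UIR had 1 call, and 64 of 66 results kept their call. Libraries of the same number had correlations of -0.19 to 0.43 and other pairs -0.24 to 0.42, while pairs of unnumbered libraries had -0.12 to 0.54. These overlapping ranges do not decide whether the numbers mark pairs. The block treats the unnumbered libraries as a set of their own. Depth limits PT of UUO, with 929553 UMIs in its 2 pools, and control frTEC, with 825401 in 3.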
